A study of Danio rerio with 8 samples.

Results

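The dlx and msx genes encode 2 related groups of homeodomain transcription factors that act in surface ectoderm and in the fin fold. They were picked by name, as dlx1a, dlx2a, dlx3b, dlx4a, dlx4b, dlx5a, dlx6a, msx1b, msx2b and msx3, and 9 of the 10 symbols were matched to 10 of the 24345 gene identifiers measured. The symbols dlx4a, dlx4b, msx1b and msx3 were matched as written. The other 5 were matched through a capitals symbol without the paralog letter (DLX1, DLX2, DLX3, DLX5 and DLX6), and they are called by their zebrafish names here. 2 identifiers carry the symbol DLX2, ENSDARG00000017174 and ENSDARG00000079964. The symbol does not tell which of them is dlx2a, so both are described by identifier. The gene msx2b was not analysed here. All 10 identifiers had a mean value of at least 10 over the samples, the minimum for testing.

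RNA was sequenced from distal trunk tissue of wildtype Tropical 5D zebrafish larvae, in a study of fin duplication that involves the aryl hydrocarbon receptor. The agent, benzo[k]fluoranthene (BkF), belongs to the polycyclic aromatic hydrocarbons, many of which activate that receptor. The 4 exposed samples came from animals kept in 12 µM BkF from 6 to 8 hours post fertilization (hpf) onward, and the 4 control samples from animals kept in the 1% DMSO solvent. Each treatment was sampled at 48, 60, 72 and 96 hpf, and all animals had been freed of their chorions at 4 hpf. Every sample is the authors' mean over 4 bioreplicates of 50 pooled animals, given as normalized counts, so no replicate values and no read depths were at hand.

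Dlx genes lie mostly as neighbouring pairs, and the members of a pair tend to be expressed in like places. Dlx3b and dlx4b act in zebrafish at the border of the neural plate, where the ear and nose placodes form, and DLX3 of mammals acts in the differentiation of skin. Dlx5a and dlx6a are known from the apical ridge of the fin fold, and dlx1a and dlx2a from the forebrain and from neural crest cells of the pharyngeal arches. Msx genes are classical targets of bone morphogenetic protein (BMP) signals and are expressed in the growing fin fold. In the regenerating zebrafish fin msx genes mark the blastema and the wound epidermis.

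The normalized counts summed to between 87750209 and 89533865 in the control samples and between 76456319 and 78634021 in the BkF samples. A change in 1 gene is therefore given relative to the authors' scaling, under which the median log2 ratio over all tested genes was −0.01. The exposure was checked on CYP1B1, a target of the aryl hydrocarbon receptor, which lay between 55.0 and 102 in the control samples and between 48368 and 55154 in the BkF samples. The posterior HOX gene hoxa13b lay between 6399.7 and 6863 in the control samples, whereas the paired fin genes TBX5 and TBX4 stayed at or under 10.7 and 5.15 in all samples.

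Of the 10 dlx and msx transcripts, 2 rose with BkF, 4 fell and 4 did not pass the test. The pair dlx3b and dlx4b rose, whereas dlx1a, DLX2 ENSDARG00000079964, dlx4a and msx3 fell. The test was limma, blocked by time point on the log2(value + 1) scale, and called at an adjusted p under 0.05 over the 21950 genes tested, of which 33.9% were called, 16.5% higher and 17.4% lower. With 1 value per condition, its p-values measure how steady the ratio of BkF to control was over the 4 time points, not the spread between animals. The median log2 change of the 10 was −0.27, and the SD of a transcript's log2 ratio over the 4 time points had a median of 0.23 for them and 0.20 over all tested genes. In 6 of the 10 the BkF and control values did not overlap, against 28.4% of all tested genes, and these were the same 6 that passed the test. In whole tissue, fewer cells that express a gene and less of its RNA per cell cannot be told apart.

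**Figure D1:**
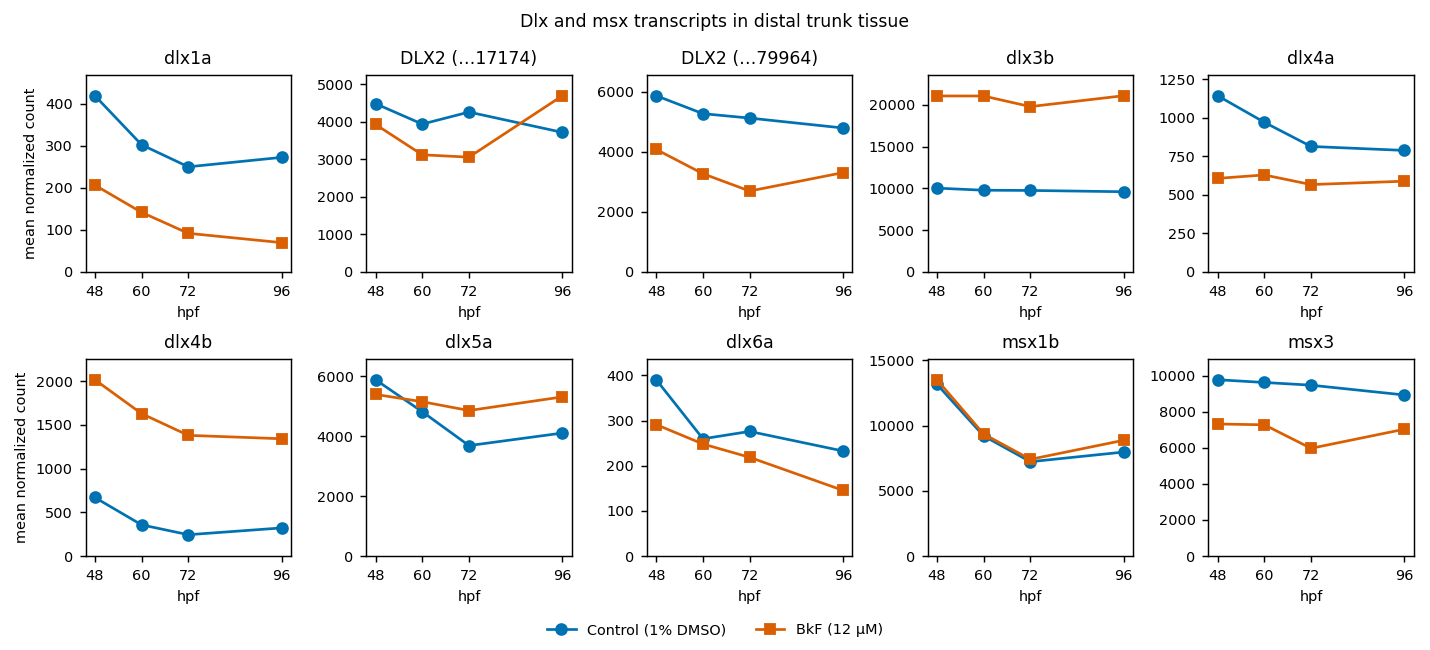
Mean normalized count (vertical axes, each from 0) of the 10 dlx and msx identifiers at 48, 60, 72 and 96 hpf (horizontal axes), with blue circles for control and orange squares for BkF, 1 value per condition. BkF lies above control at all 4 times for dlx3b, dlx4b and, by little, msx1b, and below it at all 4 times for dlx1a, the DLX2 identifier ENSDARG00000079964, dlx4a, dlx6a and msx3.

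Dlx3b (ENSDARG00000014626) measured 10026, 9775, 9748 and 9593 normalized counts in the control samples at 48, 60, 72 and 96 hpf. In the BkF samples it measured 21046, 21039.6, 19772 and 21076.5 at the same times. The control values lay close together, the BkF values lay close together at a higher level, and the groups were far apart. The ratio of BkF to control was 2.10, 2.15, 2.03 and 2.20 in the order of the times. The log2 change was 1.08 ± 0.05 (SD over 4 time points; 95% interval 0.97 to 1.198; limma adjusted p = 0.000145). An SD as small or smaller was found in 4.52% of the tested genes, and a log2 change as large or larger in size in 6.71%.

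Dlx4b (ENSDARG00000071560), the neighbour of dlx3b, measured 669, 357, 244 and 321 normalized counts in the control samples from 48 to 96 hpf. In the BkF samples it measured 2015, 1628, 1379.5 and 1340.4. Both series were highest at 48 hpf, and the lowest BkF value lay well above the highest control value. The ratio was 3.01 at 48 hpf, 4.56 at 60 hpf, 5.66 at 72 hpf and 4.17 at 96 hpf. The log2 change was 2.08 ± 0.38 (SD over 4 time points; 95% interval 1.73 to 2.44; limma adjusted p = 0.00052). Dlx4b ranked 210th from the top among the 21950 tested genes and dlx3b 684th.

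Dlx1a (ENSDARG00000013125) measured 419, 303, 250.1 and 273 normalized counts in the control samples. In the BkF samples it measured 207, 142, 92.0 and 69.8. The highest BkF value, at 48 hpf, lay below the lowest control value, and the BkF series was lower at each later time. The ratio of BkF to control was 0.493 at 48 hpf, 0.469 at 60 hpf, 0.368 at 72 hpf and 0.256 at 96 hpf. Dlx1a fell by 1.37 on the log2 scale (SD over 4 time points 0.43; 95% interval −1.81 to −0.94; limma adjusted p = 0.00328), the lowest value of the 10.

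The DLX2 identifier ENSDARG00000079964 measured 5864, 5266, 5119 and 4789.8 normalized counts in the control samples. In the BkF samples it measured 4076, 3269, 2692 and 3306, all below the lowest control value. Its log2 change was −0.67 ± 0.19 (SD over 4 time points; 95% interval −0.86 to −0.48; limma adjusted p = 0.00246). The other DLX2 identifier, ENSDARG00000017174, measured 4486, 3941, 4262 and 3720.5 in the control samples and 3932, 3123, 3060.5 and 4698 in the BkF samples. Its BkF values were the lower ones up to 72 hpf and the higher one at 96 hpf, so that the groups overlapped. Its log2 change of −0.17 ± 0.36 did not pass the test (SD over 4 time points; 95% interval −0.49 to 0.16; limma adjusted p = 0.367). Without the 96 hpf samples the change was −0.33 and passed (limma adjusted p = 0.0193).

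Dlx4a (ENSDARG00000011956), a single gene outside the pairs, measured 1143, 970.2, 814 and 788 normalized counts in the control samples. In the BkF samples it measured 607, 629, 567 and 588. The control series was highest at 48 hpf and the BkF series was nearly level, with no overlap between them. The log2 change was −0.62 ± 0.21 (SD over 4 time points; 95% interval −0.85 to −0.39; limma adjusted p = 0.00561). The paralogs dlx4a and dlx4b thus changed in opposite directions.

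Dlx5a (ENSDARG00000042296) measured 5887, 4818, 3688 and 4107 normalized counts in the control samples and 5397, 5153, 4859 and 5314 in the BkF samples. BkF was lower than control at 48 hpf and higher at the other 3 times, and the groups overlapped. Its log2 change of 0.19 ± 0.25 did not pass the test (SD over 4 time points; 95% interval −0.05 to 0.42; limma adjusted p = 0.187). Without the 48 hpf samples the change was 0.29 and passed (limma adjusted p = 0.0453). Its neighbour dlx6a (ENSDARG00000042291) measured 391, 259.7, 276 and 233 in the control samples and 291, 248, 219 and 145 in the BkF samples. Dlx6a was lower in BkF at all 4 times, but the groups overlapped. Its log2 change of −0.37 ± 0.25 did not pass the adjusted threshold (SD over 4 time points; 95% interval −0.68 to −0.07; limma adjusted p = 0.0623).

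The msx genes differed from each other. Msx3 (ENSDARG00000015674) measured 9776, 9625, 9475 and 8931 normalized counts in the control samples and 7322, 7277, 5973 and 7033 in the BkF samples. All BkF values of msx3 were below the lowest control value, and the log2 change was −0.46 ± 0.14 (SD over 4 time points; 95% interval −0.62 to −0.30; limma adjusted p = 0.00441). Msx1b (ENSDARG00000008886) measured 13177, 9211.5, 7235 and 7976 in the control samples and 13522, 9358, 7417 and 8880.5 in the BkF samples. The control and BkF series of msx1b followed each other closely, highest at 48 hpf and lowest at 72 hpf. BkF was higher at all 4 times, with log2 ratios of 0.04, 0.02, 0.04 and 0.16. The log2 change of msx1b was 0.06 ± 0.06 and did not pass the test (SD over 4 time points; 95% interval −0.05 to 0.18; limma adjusted p = 0.347).

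When the same total was set in every sample in place of the authors' scaling, the median log2 ratio over all tested genes moved to 0.18. The 6 transcripts that rose or fell kept their calls, and dlx5a (log2 change 0.37, limma adjusted p = 0.023) and msx1b (log2 change 0.25, limma adjusted p = 0.00712) passed as well. The split of the 10 was then 4 higher and 4 lower, against 7946 genes higher and 2151 lower among all genes tested and 3624 higher and 3810 lower under the authors' scaling.

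**Figure D2:**
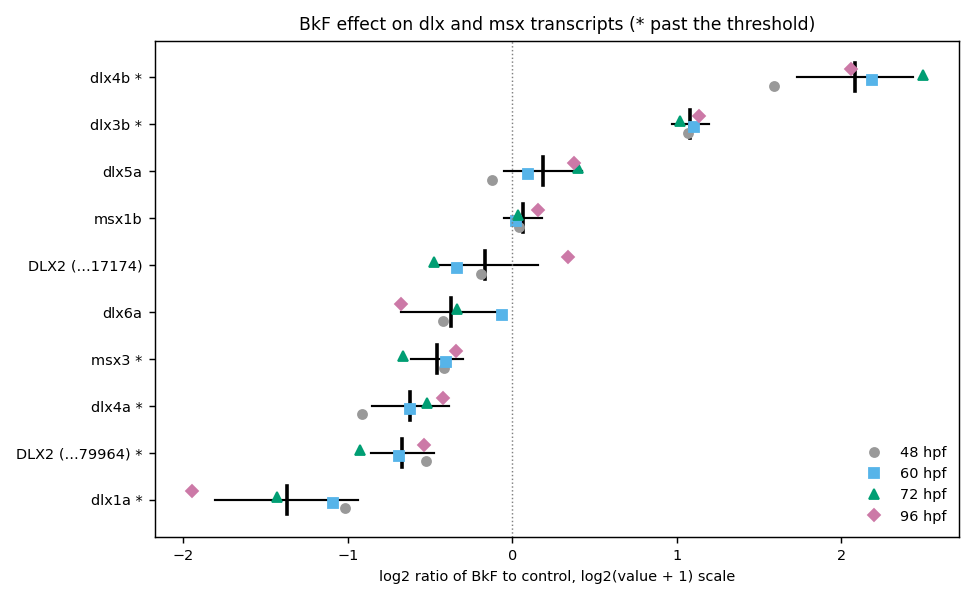
Log2 ratio of BkF to control on the log2(value + 1) scale (horizontal axis) for the 10 dlx and msx identifiers, with 1 symbol per time point, a vertical bar for the limma estimate and a line for its 95% interval; stars mark transcripts past the threshold. Dlx4b and dlx3b stand to the right at 2.08 and 1.08, dlx1a to the left at −1.37, and the other 7 lie between −0.67 and 0.19.

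At single time points a ratio is that of 1 value to 1 value and has no test, and transcripts were called by a log2 ratio at or beyond 1 in size. At each of the 4 times the same 3 of the 10 reached it, with dlx3b and dlx4b higher and dlx1a lower. The share of all tested genes that did was 7.75% at 48 hpf, 9.2% at 60 hpf, 11.2% at 72 hpf and 14.0% at 96 hpf. Dlx3b kept the most even log2 ratio of the 3, between 1.02 and 1.14. Dlx4b ranged from 1.59 at 48 hpf to 2.50 at 72 hpf, and dlx1a from −1.02 at 48 hpf to −1.95 at 96 hpf.

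In the control samples dlx1a, dlx4b, dlx5a and msx1b were lowest at 72 hpf. From 48 to 96 hpf the log2 changes of the 10 transcripts there lay between −1.06 for dlx4b and −0.06 for dlx3b. The share of all genes that were lower at 96 than at 48 hpf was not counted. In the BkF samples dlx1a had the greatest drop over the same interval, −1.55, against −0.62 in the controls. Dlx4a changed by −0.04 in the BkF samples against −0.54 in the controls, and dlx5a by −0.02 against −0.52. Dlx6a changed by −0.997 and −0.74, msx1b by −0.61 and −0.72, and msx3 by −0.06 and −0.13 in the BkF and the control samples. These are differences of 1 value from 1 value, and with no replicate values neighbouring levels in the order of times could not be set against a replicate spread.

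A linear trend with hpf over both treatments passed limma's adjusted threshold for 0 of the 10, against 0.00456% of all tested genes. At an unadjusted p under 0.05 the trend of dlx1a, dlx4b, dlx6a and msx1b did, as it did for 29.2% of all tested genes. Dlx6a had a slope of −0.40 per 24 h (limma adjusted p = 0.063) and msx1b one of −0.30 per 24 h. The change of the BkF ratio with hpf passed limma's adjusted threshold for 0 of the 10 as well, against 0.0137% of all tested genes, and at an unadjusted p under 0.05 for 3, against 16.6%. Dlx1a's ratio changed by −0.49 per 24 h (limma adjusted p = 0.178), dlx5a's by 0.25 (adjusted p = 0.238) and dlx4a's by 0.23 (adjusted p = 0.298).

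Both time tests depended on the last sampling. Without the 96 hpf samples the trend passed for 4 of the 10, all falling, with slopes of −0.95 per 24 h for dlx1a, −0.40 for DLX2 ENSDARG00000079964, −0.9997 for dlx4b and −0.87 for msx1b. Among all genes 2075 were then called rising and 1859 falling. The change of the ratio passed without 96 hpf for dlx4b at 0.91 per 24 h (limma adjusted p = 0.0162), for dlx5a at 0.52 (adjusted p = 0.0137) and for DLX2 ENSDARG00000079964 at −0.40. Of all 21950 genes tested, 937 were then called with a rising ratio and 782 with a falling one. Any fit without 1 time point leaves fewer residual degrees of freedom than the fit on all samples. It leans more on the variance shared across genes. Without 48 or without 60 hpf 0 of all genes passed either time test. Without 72 hpf 23 had a rising and 2 a falling trend, and 121 a rising and 308 a falling ratio. The cause of these differences was not tested.

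The pairs of dlx genes that are direct neighbours in the RefSeq annotation of the zebrafish assembly GRCz12tu are dlx3b with dlx4b, dlx5a with dlx6a, and dlx1a with dlx2a. Dlx4b exceeded dlx3b in log2 ratio by 0.52, 1.08, 1.48 and 0.92 at 48, 60, 72 and 96 hpf, a mean of 1.00 ± 0.40 (SD, n = 4 time points). Both rose, dlx4b by more at every time. Dlx5a exceeded dlx6a by 0.30, 0.16, 0.73 and 1.05, a mean of 0.56 ± 0.41 (SD, n = 4). Neither gene of this pair passed the test for BkF. DLX2 ENSDARG00000079964 exceeded dlx1a by 0.70 ± 0.48 and DLX2 ENSDARG00000017174 by 1.21 ± 0.73 (SD, n = 4), so dlx1a was the more reduced beside either. In all 4 comparisons the difference had the same sign at the 4 times, for which the smallest p that an exact two-sided sign-flip permutation test can give is 0.125.

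Genes that flank the members moved in differing directions. Beside dlx3b, the integrin gene itga3b, matched through the symbol ITGA3, fell by 0.57 on the log2 scale (SD over 4 time points 0.07; limma adjusted p = 0.000951), against the rises of dlx3b and dlx4b. On the other side of that pair g6pc1a.1, which encodes a glucose-6-phosphatase, was too low to be tested, at 2.09 to 17.6 in the control samples and 2.88 to 12.7 in the BkF samples. Beside dlx1a, the histone acetyltransferase gene HAT1 had a log2 change of 0.01 ± 0.10 (SD over 4 time points; limma adjusted p = 0.899). Of the genes beside dlx6a and dlx5a, SEM1, a proteasome subunit, rose by 0.24 ± 0.11 (limma adjusted p = 0.0209) and AGO2, which acts in silencing by small RNAs, had a log2 change of −0.26 ± 0.13 (adjusted p = 0.0243). Beside msx1b, which did not pass, caly rose by 0.71 ± 0.06 (limma adjusted p = 0.000861).

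Across the 8 samples, the profiles of dlx3b and dlx4b on the log2(value + 1) scale had a Pearson correlation of 0.94, and those of dlx5a and dlx6a one of 0.12. DLX2 ENSDARG00000079964 followed msx3 at 0.97 and dlx1a at 0.92, dlx4a followed msx3 at 0.91, and dlx3b ran opposite to msx3 at −0.91. These values describe 8 samples that share 1 treatment contrast and 1 set of times, so any genes that differ between treatments correlate. Among 14825 genes with a symbol and a mean of at least 50, those most like dlx3b were ugt1b1 (0.999), a glucuronosyltransferase gene, and tiparp (0.999), a target of the aryl hydrocarbon receptor that encodes an ADP-ribosyltransferase. Tiparp lay between 2542 and 2682 in the control samples and between 15120 and 16002 in the BkF samples, a log2 change of 2.59 ± 0.05. The log2 change of ugt1b1 was 4.44 ± 0.16. Both were picked for their likeness to dlx3b in these same 8 samples, so the likeness is a description only. For dlx4b they were slc17a9a (0.9996) and ERGIC3 (0.996), for dlx1a atp1b3a (0.996) and MATN4 (0.996), and for dlx4a oxsr1b (0.992) and CERS3 (0.991).

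Like profiles were also found for the remaining transcripts. For DLX2 ENSDARG00000079964 they were prss23 (0.996) and ANO8 (0.994), both lower in BkF, and for DLX2 ENSDARG00000017174 they were CSPG4 ENSDARG00000078227 (0.974) and PUM2 (0.952). Dlx5a was nearest to GTF2A1 (0.991) and SRA1 (0.990), and dlx6a to dnah5l (0.975) and PAQR8 (0.972). Msx1b was nearest to he1.3 (0.978), a hatching enzyme gene, and PHGDH (0.977), an enzyme of serine synthesis, both of which did not pass the test for BkF. Msx3 was nearest to RBM15 (0.992) and SIAH1 (0.988), which fell by 0.22 and 0.32 on the log2 scale.

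Msx genes are BMP targets, so the genes of the BMP pathway were read beside them. Of 30 measured BMP genes 9 rose and 3 fell, against 16.5% and 17.4% of all tested genes. Their median log2 change was 0.14. By role, 5 of 9 ligand genes rose and 0 fell, 3 of 4 antagonist genes rose, 0 of 4 receptor genes passed the test, and 3 of 5 ID genes, transcriptional regulators that BMP signals induce, fell. BMP4 lay between 6119 and 7336 in the control samples and between 10092 and 12513 in the BkF samples, a log2 change of 0.77 ± 0.04 (SD over 4 time points; limma adjusted p = 0.000287). All BkF values of BMP4 were above the highest control value, while msx3 fell. Msx1b was higher in BkF at all 4 times, by little, and did not pass the test.

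The ligand gene with the greatest rise was BMP8A, from 6.54 to 10.22 in the control samples and from 268 to 656 in the BkF samples, a log2 change of 5.68 ± 0.46 (limma adjusted p = 0.000105). BMP2 ENSDARG00000013409 rose by 0.77 ± 0.11, BMP7 by 0.87 ± 0.12 and gdf6a by 0.91 ± 0.10 on the log2 scale. Among the antagonists, BAMBI, a decoy receptor, rose by 1.44 ± 0.24 (SD over 4 time points; limma adjusted p = 0.000458), and nog2, a noggin, by 0.66 ± 0.21 on the log2 scale. Of the 5 SMAD genes that carry the signal smad9 rose, by 0.64 ± 0.19. The 3 inhibitory SMAD genes did not pass the test.

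ID1 fell by 0.37 (SD over 4 time points 0.26; limma adjusted p = 0.0405), ID2 ENSDARG00000055283 by 0.38 (SD 0.20; adjusted p = 0.0165) and ID3 by 0.36 (SD 0.16; adjusted p = 0.0122). These falls did not hold with the same total in every sample, where ID1, ID2 and ID3 had log2 changes of −0.18, −0.20 and −0.17 (limma adjusted p = 0.187, 0.0819 and 0.0997) and the BMP genes split into 17 higher and 0 lower. Msx3 remained lower there, at −0.27 (limma adjusted p = 0.0143), and msx1b passed as higher, at 0.25 (limma adjusted p = 0.00712). Setting the same total moved the median log2 ratio over all tested genes to 0.18, and 7946 of the 21950 were then called higher. With quantile normalization ID2 and ID3 still passed as lower, at −0.42 and −0.39 (limma adjusted p = 0.0123 and 0.0104). ID1 did not pass with that scaling, at −0.18 (limma adjusted p = 0.217).

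**Figure D3:**
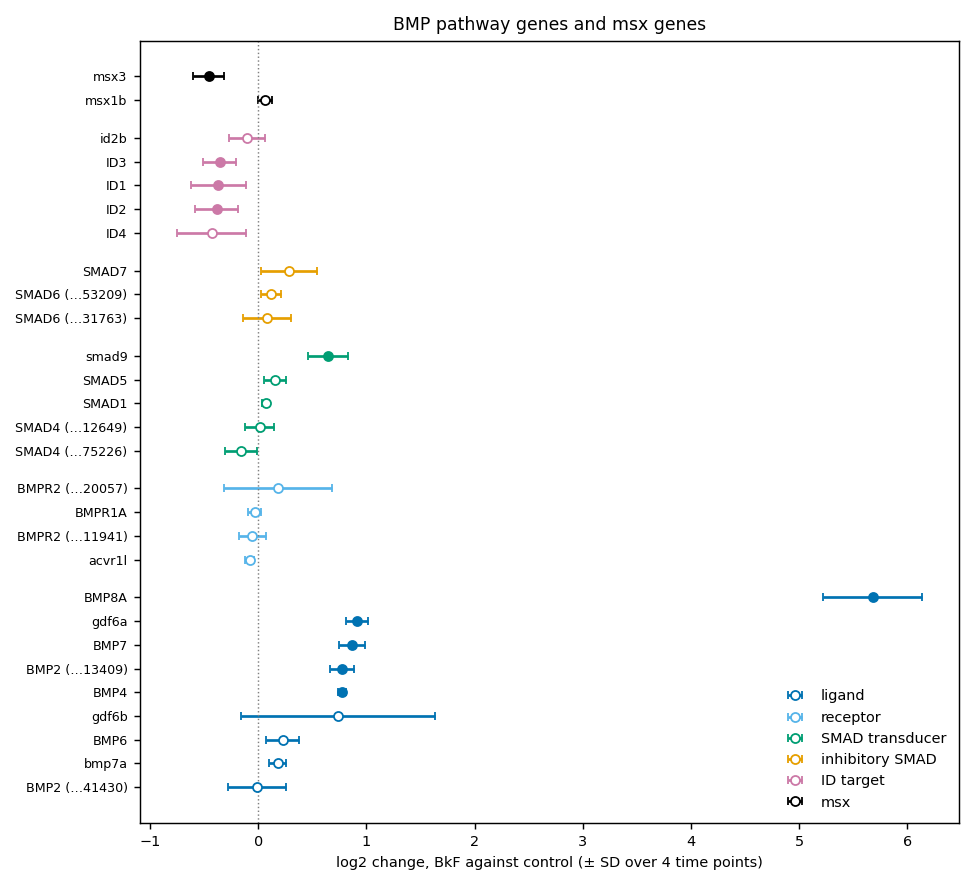
Log2 change of BkF against control (horizontal axis) for BMP ligand, receptor, SMAD and ID genes and for msx1b and msx3; points are limma estimates, bars the SD over 4 time points, and filled points passed the test. The 5 filled ligand genes lie between 0.77 and 5.68, while msx3 lies at −0.46 and msx1b at 0.06.

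The genes of the fin fold, where dlx5a, dlx6a and the msx genes are known to act, moved in both directions. Of 22 genes of the fin fold epidermis and its matrix 7 rose and 6 fell, against 16.5% and 17.4% of all tested genes. Their median log2 change was 0.12. FREM3, a protein of the epidermal basement membrane, rose by 1.79 ± 0.46 (limma adjusted p = 0.00118) and the growth factor gene FGF16 by 1.58 ± 0.53 (adjusted p = 0.00313). EN1, a homeobox gene of the ventral ectoderm, fell by 1.74 (SD 0.78; adjusted p = 0.0068) and and2, which encodes actinodin of the fin fold's rods, by 1.64 (SD 0.21; adjusted p = 0.00179). With the same total in every sample 9 rose and 6 fell, against 7946 higher and 2151 lower among all 21950 genes tested.

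Of 28 tested genes of the fin bud and fin mesenchyme 5 rose and 8 fell, against 16.5% and 17.4% of all tested genes. Their median was −0.17, and with the same total 9 rose and 6 fell. Among all 21950 genes tested 7946 were higher and 2151 lower with that scaling. TBX2 ENSDARG00000006120 rose by 1.34 ± 0.46 and hoxd13a, a homeobox gene of the distal fin, by 1.15 ± 0.24 on the log2 scale. ALX4 ENSDARG00000074442, an anterior homeobox gene of limb buds, fell by 1.55 (SD over 4 time points 0.94, limma adjusted p = 0.0213). Its log2 ratio went from −2.52 at 48 hpf to −0.41 at 96 hpf. LMX1B, a dorsal homeobox gene, fell by 1.24 (SD 0.36, limma adjusted p = 0.00315).

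Msx genes are expressed in the regenerating fin with the genes of fin regeneration and the blastema. That list was chosen with earlier results of these data known. Of its 28 tested genes 17 rose and 0 fell, against 16.5% and 17.4% of all tested genes, with a median log2 change of 0.70. The growth factor gene FGF20 ENSDARG00000007356 rose by 3.88 ± 0.12 (limma adjusted p = 2.8e-05). Blastema formation in zebrafish needs fgf20a, and the symbol does not tell whether this identifier is fgf20a. The cytokine gene lepb lay between 0 and 8.74 in the control samples and between 39.8 and 627 in the BkF samples. Under the authors' scaling neither msx1b nor msx3 passed the test as higher beside them, while dlx3b and dlx4b did. With the same total in every sample msx1b passed as higher (log2 change 0.25, limma adjusted p = 0.00712). The median log2 ratio over all tested genes was 0.18 with that scaling, and 7946 of the 21950 were called higher.

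Several dlx genes are expressed in skin, and skin markers differed between the treatments. Over all tested genes 16.5% rose with BkF and 17.4% fell. All 6 basal epidermis markers fell, with a median log2 change of −1.22, and their summed normalized counts were 303609 to 535591 in the control samples and 142146 to 198004 in the BkF samples. TP63, the transcription factor of basal epidermis, fell by 0.53 and the keratin gene krt5 by 1.33 on the log2 scale. Of 10 periderm markers 8 fell, with a median of −0.86 and summed counts of 6095005 to 7613967 and 1236215 to 2959842 in the control and BkF samples. The lists overlap, as krt5 is counted in both. No marker of either list was at 0. Dlx3b and dlx4b were thus higher in tissue with lower skin marker levels, and dlx4a, dlx1a, DLX2 ENSDARG00000079964 and msx3 were lower. The part of the markers in these results was not tested.

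**Figure D4:**
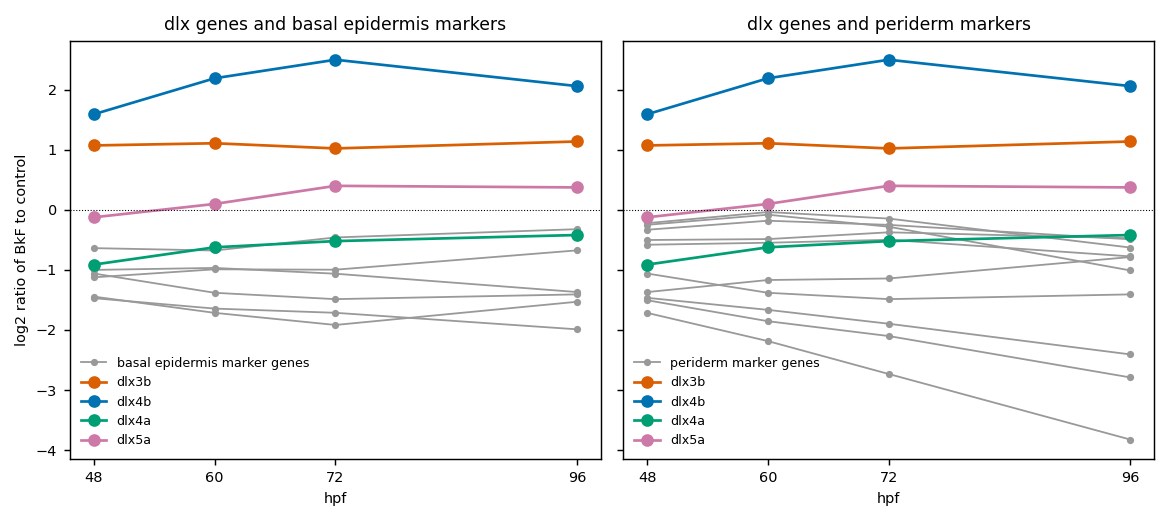
Log2 ratio of BkF to control (vertical axes) at 48, 60, 72 and 96 hpf (horizontal axes) for dlx3b, dlx4b, dlx4a and dlx5a in colour and for the 6 basal epidermis markers (left) and 10 periderm markers (right) in grey. Dlx3b stays between 1.02 and 1.14 and dlx4b between 1.59 and 2.50. The median of the grey lines at single times lies between −1.39 and −1.09 on the left and between −0.90 and −0.82 on the right.

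Markers of other tissues in which dlx and msx genes are known to act were also read, beside 16.5% of all tested genes that rose and 17.4% that fell. Of 9 neural crest markers 1 rose and 4 fell, with a median of −0.12, and of 15 tested markers of neurons and spinal cord 1 rose and 1 fell, with a median of 0.02. Of 12 lateral line markers 0 rose and 10 fell, with a median of −0.92. Of 11 otic vesicle markers 2 rose and 3 fell, with a median of −0.02. Of 7 tested pharyngeal arch markers 3 rose and 2 fell, with a median of −0.07. The summed level of the arch markers was 9486 to 11095 in the control samples and 10781 to 14003 in the BkF samples. Within that list BARX1 and GSC were at or under 18.6 and 5.65 in all samples. Of 7 tested forebrain markers 2 rose, 3 fell and 2 did not pass, with a median of −0.39. The summed level of the 10 matched forebrain markers was 5589.9 to 6133 in the control samples and 4844 to 5482 in the BkF samples. Of these 10 markers 2 stayed under 10 in all samples. The part of these markers in the results for dlx1a and the DLX2 identifiers was not tested.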

How the data were processed

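RNA of zebrafish distal trunk tissue was read as 100 bp single ends, per the labels. The deposited signal values are the authors' mean normalized counts over 4 bioreplicates. Per the submitters' processing notes the tools were FastQC, Trimmomatic, Salmon and DESeq2 and the genome build was Zv9. Tool versions are not given in the sources used here. Single-sample tables held the same values as the series table (0 of 24345 values differed). Read depth is unknown, so no counting intervals are given.

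Values were analysed as log2(value + 1) for the 21950 genes with a mean of at least 10, with limma 3.58.1 in R 4.3.3, a prior variance that follows intensity, and two-sided p adjusted by Benjamini and Hochberg, called under 0.05. This scale understates the changes of genes with low values. The BkF effect had time point as a block. The trend had treatment and centred hpf as terms, and the change of the ratio was the BkF by hpf interaction with time point as a factor. The scripts were tested on simulated data. Tables and figures were made with Python 3.11.15, pandas 2.3.3 and matplotlib 3.10.9.

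The genes, the lists and the tests were chosen with earlier results of these data known, and the BMP roles were assigned after the values were seen. 18028 of 24345 identifiers had a symbol. Where a symbol is shared, the identifier is printed, and Salmon can divide reads between close paralogs. Named were the 10 transcripts, the 2 largest rises and falls of each list, the 2 profiles most like each transcript and CYP1B1. Other genes named (BMP ligands, antagonists and SMAD genes, flanking genes and tissue markers) were chosen after their values were seen. Some genes that this rule names are not reported here. RefSeq's GRCz12tu annotation was used for gene order. Coordinates and sequences were not used here. Alternatives were pseudocounts of 0.5 and 10, no filter or a mean of at least 50, 2 other scalings, other prior settings, control samples alone for the trend, each time point left out and, chosen after seeing the data, each DLX2 identifier left out.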

Additional observations from a re-analysis of the deposited data

How the results depend on the processing

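The 6 calls for BkF (dlx1a, DLX2 ENSDARG00000079964, dlx3b, dlx4a, dlx4b and msx3) held under all 13 alternatives run for them, with log2 changes of −1.49 to −1.18, −0.72 to −0.48, 1.07 to 1.27, −0.69 to −0.43, 1.94 to 2.27 and −0.50 to −0.27. With the same total in every sample 4 transcripts were higher, as were 7946 of all 21950 genes tested. DLX2 ENSDARG00000017174 turned to 0.019 there, and 0 transcripts were lower by a log2 ratio of 1 at 48 and 60 hpf. At 48 hpf the number was also 0 with a pseudocount of 10. Over the lists 25 genes fell, and 16 without the 60 hpf or without the 72 hpf samples. Among all genes tested 3810 fell with all samples, 1830 without 60 hpf and 1972 without 72 hpf. Without 96 hpf 4 transcripts had a falling trend, 2 a rising ratio and 1 a falling ratio. Of all 21950 genes tested, 2075 then had a rising trend, 1859 a falling trend, 937 a rising ratio and 782 a falling ratio. Any fit without 1 time point has fewer residual degrees of freedom and leans more on the variance shared across genes. Without 48 or without 60 hpf 0 of all genes passed either time test. Slopes that turned were those of DLX2 ENSDARG00000017174 (−0.0032 without 60 hpf, −0.22 without 96 hpf, −0.11 in controls alone) and dlx3b (0.0026 with quantile normalization). Changes of the ratio that turned were −0.017 for dlx3b and −0.014 for msx3 with quantile normalization, −0.14 for dlx4b and 0.14 for DLX2 ENSDARG00000079964 without 48 hpf, and 0.0196 for the latter without 72 hpf. Without 96 hpf they were −0.29 for DLX2 ENSDARG00000017174, −0.0496 for dlx3b, 0.087 for dlx6a, −0.0013 for msx1b and −0.25 for msx3. The cause was not tested. Calls gained were DLX2 ENSDARG00000017174 (−0.33) without 96 hpf, dlx5a without 48 hpf (0.29) and, with the same total, dlx5a (0.37) and msx1b (0.25). The BkF test is paired by time point; without that block 2773 of all genes rose and 2613 fell. By replicate number, no paired analysis was possible because each condition has 1 value. Leaving out either DLX2 identifier, chosen after seeing the data, only recounted the same fit. The call of another transcript could not change by it, so it tests nothing. Replicate values and depth, not used here, limit every statement.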

Other observations

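DLX and MSX proteins act in bone and cartilage formation, and genes of both were read in the same fit. Of 13 tested bone genes 3 rose and 2 fell with BkF, against 16.5% and 17.4% of all tested genes. Their median log2 change was 0.16. The transcription factor genes runx2b and SP7, which direct osteoblast formation, rose by 1.36 ± 0.17 and 0.80 ± 0.14 (SD over 4 time points; limma adjusted p = 0.000538 and 0.000948). The matrix genes SPARC and COL1A2 fell by 0.74 and 0.60 (limma adjusted p = 0.00329 and 0.00983). Summed osteoblast marker levels were 4135 to 4702 in the control samples and 6427 to 7363 in the BkF samples. All 7 of these markers are also counted among the bone genes. Of the 7 markers 3 rose, the same 3 as above, and 4 did not pass the test, with a median log2 change of 0.49.

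Of 12 tested cartilage genes 2 rose and 5 fell, against 16.5% and 17.4% of all tested genes. Their median log2 change was −0.61. The SOX9 identifiers, whose factor directs cartilage formation, moved apart: ENSDARG00000043923 fell by 3.22 (SD 0.38; limma adjusted p = 0.000145), from 4352 to 5776 in the control samples to 439.8 to 744 in the BkF samples, whereas ENSDARG00000003293 rose by 0.39 (SD 0.04; adjusted p = 0.00282). The proteoglycan genes acana and acanb also moved apart, with acana falling by 1.72 and acanb rising by 0.95 (limma adjusted p = 0.00402 and 0.00365).

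Adam8a, a metalloprotease gene that lies close to msx3 in the RefSeq order, rose by 1.75 ± 0.54 (SD over 4 time points; limma adjusted p = 0.00214) while msx3 fell by 0.46 and ZNF511 between them had a log2 change of −0.08 that did not pass the test.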
